A study of Homo sapiens with 12 samples.

Results

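The comparison asked what 28 days with a very low dose of bisphenol A (BPA), 0.25 nM, did to the RNA of IOSE80 cells. 3 libraries of cells kept with 0.25 nM BPA were set against 3 libraries of cells kept with 0.1% DMSO for as long, and no other agent is named in the labels of these 6. Described were all loci with at least 1 FPKM in at least 2 of the 6 libraries, which left 11929 of 30574 listed loci. FPKM is the number of fragments scaled to transcript length and to library size. Of these loci, 9391 name exactly 1 protein-coding gene, 657 name several and 1881 name none. 298 loci lay just inside the limit, with exactly 2 libraries at or above 1 FPKM and a median level of 0.89 FPKM, and 468 lay just outside with 1 such library and a median of 0.73 FPKM. 149 loci passed through 1 group alone, 90 through DMSO and 59 through BPA, and these had to differ.

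IOSE80 is an immortalised line of human ovarian epithelial cells. The series also holds 3 libraries with 2500 nM BPA and 2 with E2 (the usual short name of estradiol, at an unstated dose), both after 28 days; the labels list 12 samples, and the third E2 sample was not analysed here. For BPA and E2 no solvent is named, and DMSO is taken as their vehicle. Whether the replicates grew as separate cultures is not stated, and the spread that every p-value here rests on may therefore be technical. In bulk RNA a lower level can come from fewer cells or from less RNA per cell, and these cannot be told apart.

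BPA is a plastics monomer with weak oestrogen-like activity. Oestrogens act mainly through the nuclear receptors ESR1 and ESR2, which bind oestrogen response elements near target genes, and through the membrane receptor GPER1. Growing cells also spend much of their transcription on ribosomes, mitochondrial enzymes, DNA replication factors and chaperones, and these housekeeping programmes tend to move together with growth conditions.

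FPKM totals, which are already scaled to library size, lay between 206719 and 213663 over all 11. Pairs of libraries within a group correlated across loci (log2 FPKM + 1) with Pearson's r of 0.9795 to 0.9853, so none was a copy of another. The second DMSO library held 23696 loci above 0, beside 21358 and 21795 in its group. The second DMSO and second E2 libraries had the lowest median correlation with the other libraries, 0.9799 and 0.9774. Read depth is unknown, and precision was taken from the spread between libraries. The epithelial label was only partly borne out by RNA. Of 15 matched markers of ovarian surface epithelium, 4 reached the limit. KRT18, a keratin of simple epithelia, stood between 19.76 and 27.02 FPKM in all 11 libraries, and ALDH1A1, an aldehyde dehydrogenase, between 94.98 and 120.77. WT1, a transcription factor of mesothelium, was at most 0.01 FPKM. The epithelial cadherin CDH1, of a separate list for fallopian epithelium, was at most 0.02. No matched member of that list reached the limit. The endothelial cadherin CDH5 was listed at 0 in the 6 libraries compared, and CLDN5 and ERG of the endothelial list also missed the limit. EGFL7 of the same list stood between 5.95 and 10.86 FPKM in all 11 libraries. VIM, the mesenchymal filament protein, stood between 623.53 and 827.91 FPKM. No member of the leukocyte list reached the limit. In the granulosa list FOXL2, at 5.36 to 7.70 FPKM, and INHA reached it. COL3A1, THY1 and S100A4 of the fibroblast list did so too, as did ACTA2, CNN1, NOTCH3 and CSPG4 of the smooth muscle and pericyte list. The other matched members of these lists did not.

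Both genes that passed the test are shown first by the 250 bases before their start, because they are the only loci called. The start is RefSeq's, which for SZRD1 lies inside the assembled locus and not at its first base. The stretches are from RefSeq on GRCh38.p14, for SZRD1 chr1:16366992-16367241 on the plus strand and for CCDC69 chr5:151224093-151224342 on the minus strand, written 5′ to 3′ in lower case.
SZRD1: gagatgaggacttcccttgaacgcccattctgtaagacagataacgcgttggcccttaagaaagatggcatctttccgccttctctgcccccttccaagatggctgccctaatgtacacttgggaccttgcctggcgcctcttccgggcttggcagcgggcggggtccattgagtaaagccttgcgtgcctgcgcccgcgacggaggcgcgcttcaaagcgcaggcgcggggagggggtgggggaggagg
CCDC69: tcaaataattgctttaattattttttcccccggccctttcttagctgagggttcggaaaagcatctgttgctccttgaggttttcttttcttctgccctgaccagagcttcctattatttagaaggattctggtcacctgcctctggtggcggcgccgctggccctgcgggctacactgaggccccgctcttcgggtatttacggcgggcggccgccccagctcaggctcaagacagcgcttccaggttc
Nothing is in capitals, since none of the motifs searched here lies in these windows of 250 bases before to 50 after the start. The oestrogen response element was searched as GGTCA and TGACC with any 3 bases between them, on both strands. It was found in 1 of the 7514 promoters of tested genes with a RefSeq sequence (0.0133%), and its absence from these letters says nothing about the receptor.

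SZRD1 and CCDC69 rose with 0.25 nM BPA, and no locus was called lower. These 2 calls are 0.0168% of the loci tested, at an adjusted p under 0.05 with limma over all loci. SZRD1, which encodes a small protein with an RNA-binding SUZ domain, lies at chr1:16352575-16395406 on GRCh38. It stood at 14.13, 18.78 and 13.27 FPKM in the DMSO libraries and at 30.60, 30.04 and 33.71 FPKM with BPA. The 3 BPA libraries lay close together and far above the highest DMSO library. The means were 15.4 ± 2.96 and 31.4 ± 1.98 FPKM (SD, n = 3 each), a log2 change of 1.0 ± 0.11 (SE) on the scale log2(FPKM + 1), with a limma adjusted p of 0.0463.

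CCDC69, a coiled-coil protein known from the central spindle of dividing cells, lies at chr5:151181052-151224093. Its level was 1.04, 0.95 and 0.81 FPKM with DMSO and 2.32, 2.19 and 2.21 FPKM with BPA. Only the first DMSO library reached 1 FPKM, so this locus met the limit for testing through the BPA libraries. Keeping loci at low levels in the test left CCDC69 called, at a limma adjusted p of 0.0109. Every BPA library lay far above the highest DMSO library, and the means were 0.933 ± 0.116 and 2.24 ± 0.07 FPKM (SD, n = 3 each). The log2 change was 0.75 ± 0.07 (SE; limma adjusted p = 0.0102), which the added 1 FPKM of the log scale understates at this low level. The call of CCDC69 held in 16 of 19 alternative analyses and that of SZRD1 in 4 of 20, with adjusted p up to 0.541 and 0.672, while the log2 changes stayed between 0.70 and 1.18 and between 0.91 and 1.14. Both genes stood at like levels in the other treatments. SZRD1 averaged 31.9 ± 1.57 FPKM with 2500 nM BPA (n = 3) and 32.8 ± 2.95 with E2 (n = 2), and CCDC69 averaged 2.09 ± 0.174 and 2.19 ± 0.0566 FPKM. Their log2 difference between the BPA doses was 0.02 ± 0.11 for SZRD1 and -0.07 ± 0.07 for CCDC69, with limma adjusted p of 0.978 and 0.838. All comparisons with DMSO share the same 3 DMSO libraries, so a low level in those libraries enters each of them.

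**Figure D1:**
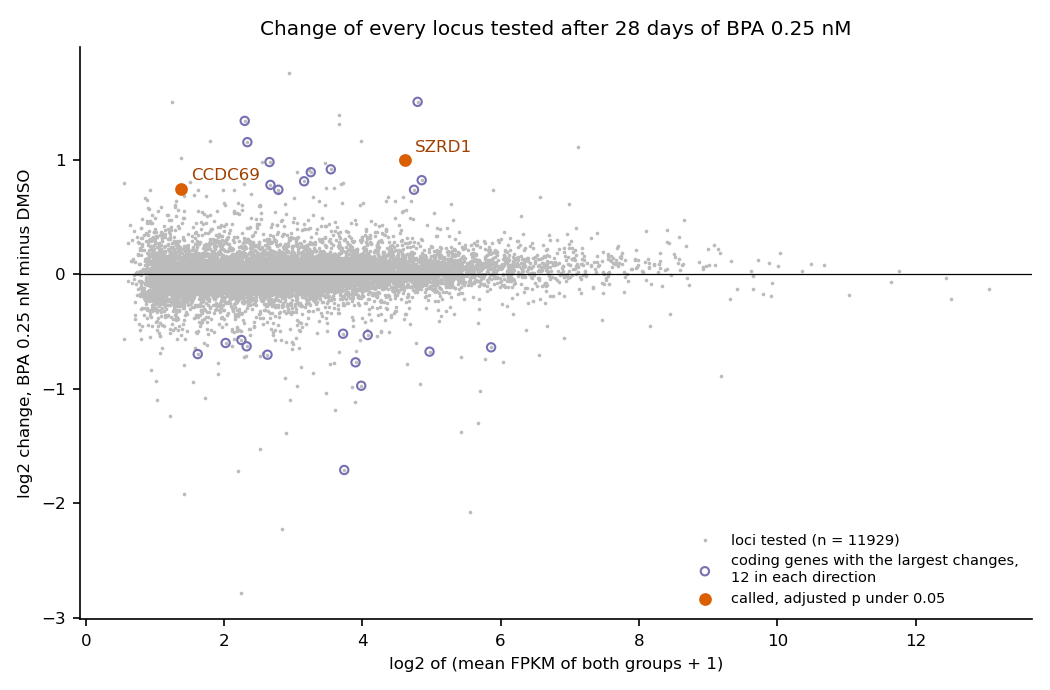
Log2 change of each of the 11929 loci (BPA 0.25 nM minus DMSO, vertical axis) against its level, the log2 of mean FPKM + 1 over both groups (horizontal axis). Filled points are the called genes SZRD1 and CCDC69, open circles the coding genes named for the size of their change. Most loci lie close to 0, and the cloud tilts above 0 at high levels.

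Across all loci the shifts were small. The median log2 change was 0.00, the median absolute change 0.075 and the median SE 0.083. 128 loci differed by at least 0.6, 66 of them higher and 62 lower. At an unadjusted p under 0.05, 631 loci were higher (5.29%) and 473 lower (3.97%), 1104 together where 596 would be there if none differed. In 1092 loci (9.15%) all 3 BPA libraries lay above all 3 DMSO libraries, and in 971 (8.14%) all lay below. Their median absolute log2 change was 0.15.

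Highly expressed loci stood higher more often. Of the 2360 loci with a mean under 2 FPKM, 4.1% lay entirely above the DMSO libraries and 8.6% entirely below. Of the 248 loci at 100 FPKM or more, 28.2% lay entirely above and 5.6% below, with a median log2 change of 0.08. Counts of list members without overlap are therefore given below beside the share of loci at the level of the list's median member. They also stand beside 9.15% and 8.14% of all loci. A higher mean was found in 52.8% of loci between 5 and 20 FPKM and in 61.5% between 20 and 50. Between 50 and 100 FPKM the share was 71.1%, and at 100 or more 71.8%. The median log2 changes at these levels were 0.01, 0.03, 0.06 and 0.08. List medians and counts of members with a higher mean are to be read beside these values.

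After the called pair, the smallest adjusted p-values were 0.165 and 0.166, and none of these loci passed the test. WEE1, the kinase that holds back entry into mitosis, stood at 2.43, 2.78 and 2.52 FPKM with DMSO and at 4.24, 4.33 and 4.14 with 0.25 nM BPA. With 2500 nM BPA it was 2.17, 2.86 and 3.02 and with E2 3.0 and 2.70, so the 3 libraries at 0.25 nM were the highest of all 11. Its log2 difference from DMSO was 0.55 ± 0.09 (limma adjusted p = 0.166), and the 2500 nM group lay 0.52 below the 0.25 nM group (SE 0.09, limma adjusted p = 0.129).

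ODC1, ornithine decarboxylase, makes the first polyamine and is limiting for their synthesis. It stood at 72.90, 72.80 and 75.79 FPKM with DMSO and at 85.20, 85.48 and 85.55 with 0.25 nM BPA. The groups did not overlap, and the log2 difference was 0.21 ± 0.03 (limma adjusted p = 0.166). At 2500 nM its libraries held 98.08, 99.34 and 95.93 FPKM, above both, though the dose difference of 0.19 ± 0.03 did not pass the test (limma adjusted p = 0.134).

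PAK1IP1, a factor of large ribosomal subunit assembly, read 19.23, 20.11 and 21.12 FPKM with DMSO and 24.96, 25.50 and 24.20 with 0.25 nM BPA. MRPL27, a protein of the mitochondrial ribosome, read 10.40, 10.43 and 10.58 against 12.88, 13.08 and 12.82. Their log2 differences were 0.29 ± 0.05 and 0.28 ± 0.05, both with a limma adjusted p of 0.166. In each, the spread within a group was small beside the gap between groups.

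PCK2, the mitochondrial PEP carboxykinase, was like WEE1 near the DMSO level or under it at the higher dose. It stood at 14.50, 14.60 and 14.79 FPKM with DMSO, at 17.86, 17.79 and 18.21 with 0.25 nM BPA, and at 14.74, 12.87 and 13.13 with 2500 nM. The 2500 nM group lay 0.38 below the 0.25 nM group (SE 0.05), short of the threshold at a limma adjusted p of 0.0542.

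On the lower side, NUP43, a scaffold protein of the nuclear pore, came closest to the threshold. It stood at 15.15, 15.81 and 12.73 FPKM with DMSO and at 9.47, 9.51 and 10.49 with BPA, a log2 difference of -0.52 ± 0.07 (limma adjusted p = 0.165). G3BP2, which nucleates stress granules, read 38.54, 39.95 and 37.84 against 30.21, 29.99 and 29.44, a difference of -0.36 ± 0.06 (limma adjusted p = 0.166). TXNIP, the arrestin that restrains glucose uptake and thioredoxin, read 10.05, 9.42 and 8.87 against 7.46, 6.18 and 6.59, or -0.43 ± 0.07 (limma adjusted p = 0.195). TXNIP was lower still with 2500 nM BPA, at 5.05, 5.44 and 4.74 FPKM.

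**Figure D2:**
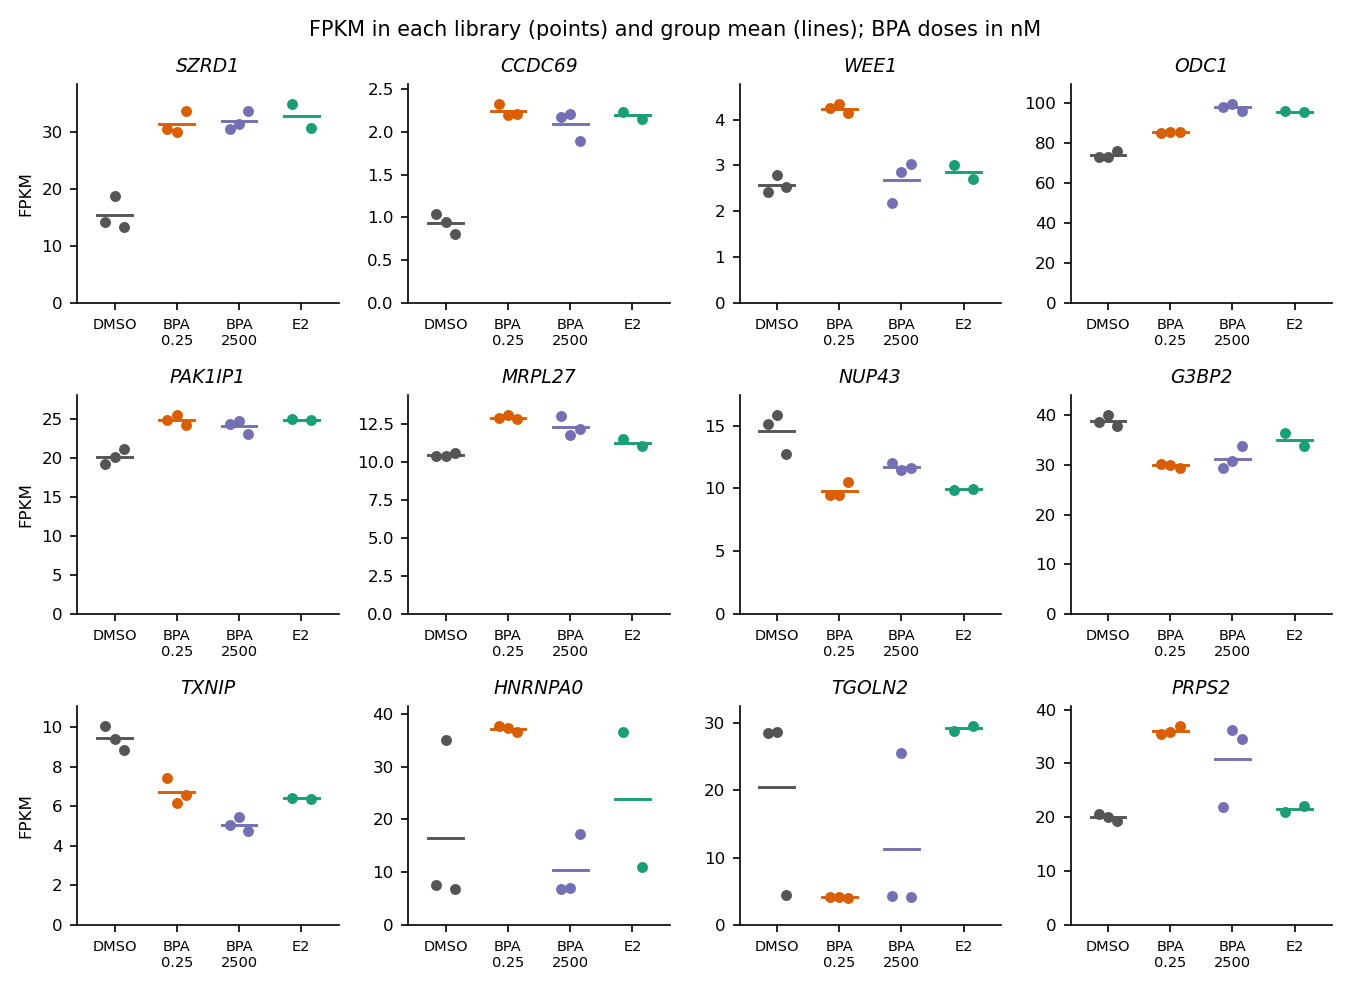
FPKM of 12 genes in each of the 11 libraries (points) with the group mean (line), from 0, by treatment. SZRD1 and CCDC69 sit at a low level in the DMSO libraries alone, WEE1 is high in the 0.25 nM libraries alone, and HNRNPA0, TGOLN2 and PRPS2 also switch between levels inside other groups.

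Size of change and evidence did not go together. The coding genes with the largest non-overlapping differences, 12 in each direction, included 8 whose 11 libraries fell into 2 separate levels, a pattern found in 2.32% of all loci. These stand beside 36 of the 128 loci with an absolute log2 change of at least 0.6. One of the 8 is TGOLN2, a resident of the trans-Golgi, which read 28.56, 28.62 and 4.44 FPKM with DMSO and 4.20, 4.21 and 4.02 with 0.25 nM BPA. The third DMSO library thus sat at the BPA level, and the 2500 nM libraries were also split. HNRNPA0, an RNA-binding protein that is not among the 8, read 7.56, 34.97 and 6.90 against 37.63, 37.41 and 36.50, with the second DMSO library near the BPA level. The limma adjusted p was 0.533 for TGOLN2 and 0.517 for HNRNPA0.

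A few of the large differences were even within both groups. WIPF2, an actin regulator, stood at 1.77, 1.77 and 1.82 FPKM with DMSO and at 5.84, 6.15 and 6.17 with BPA, a log2 difference of 1.34 ± 0.27 (limma adjusted p = 0.248). At 2500 nM it ranged from 1.63 to 5.80 FPKM, and that spread enters its SE. PRPS2, which makes the ribose phosphate for nucleotides, read 20.69, 19.96 and 19.25 against 35.45, 35.77 and 36.87 (0.82 ± 0.15, limma adjusted p = 0.248). It is one of the 8 genes with 2 separate levels, and 2 libraries of the 2500 nM group and 0 of E2 stood at its upper level. CNOT8, a deadenylase subunit, read 19.84, 21.04 and 18.87 against 11.68, 9.26 and 8.25 (-0.97 ± 0.23, limma adjusted p = 0.332). Under a fit to the 6 libraries alone, WIPF2 and PRPS2 were called (limma adjusted p of 5.50e-04 and 0.00382) and SZRD1 was not. That fit leaves out the 2500 nM libraries, in which both WIPF2 and PRPS2 were uneven.

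Genes of ribosome production stood higher in nearly the whole list. They build ribosomes in the nucleolus, by transcribing, cutting and folding ribosomal RNA. Of 42 tested members of the ribosome biogenesis list, 39 had a higher mean with 0.25 nM BPA, beside 50.2% of all loci. Among loci between 20 and 50 FPKM, 61.5% did. In 23 (54.8%) all BPA libraries lay above all DMSO libraries, beside 9.15% of all loci and 15.3% of loci between 20 and 50 FPKM. None lay entirely below and none was called. The median log2 change was 0.10. EBNA1BP2, needed for large subunit assembly, read 41.73, 41.02 and 42.17 FPKM with DMSO and 48.46, 49.18 and 47.78 with BPA. NOP16 read 13.88, 13.69 and 15.31 against 17.29, 18.20 and 16.59. NOL6, of the small subunit processome, read 7.76, 8.24 and 7.57 against 10.51, 9.55 and 9.06. All 3 thus separated without overlap, at limma adjusted p of 0.243, 0.263 and 0.268.

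The per-library level of this list, the median deviation of its members from their mean over the 6 libraries, was -0.061, -0.076 and -0.028 with DMSO and 0.064, 0.052 and 0.061 with 0.25 nM BPA. With 2500 nM it was 0.140, 0.170 and 0.107 and with E2 0.146 and 0.154. The 0.25 nM libraries thus lay between the DMSO libraries and those of both other treatments, in every library.

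Many promoters of these genes carry the E-box CACGTG, the site of MYC and its relatives. It was searched on both strands from 250 bases before to 50 after the start. It lay in 14 of 38 promoters of the list (36.8%) and in 10.4% of all 7514. The 3 members with the smallest p that hold it are shown, with the E-box in capitals, from chr1:43172782-43172820 (minus strand), chr16:69132613-69132648 (plus) and chrX:129905914-129905948 (plus).
EBNA1BP2: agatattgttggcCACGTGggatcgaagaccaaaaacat
UTP4: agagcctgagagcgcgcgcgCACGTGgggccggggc
UTP14A: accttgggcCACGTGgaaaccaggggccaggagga
Outside the ribosomal proteins, 55.3% of the 783 genes with an E-box and 49.2% of the 6676 without had a higher mean, with median log2 changes of 0.012 and -0.002. The share entirely above DMSO was 9.71% and 9.29%. MYC itself stood at 2.95, 3.31 and 1.76 FPKM with DMSO and at 3.40, 3.74 and 2.55 with BPA, overlapping groups with a limma adjusted p of 0.724.

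Genes of the cytosolic ribosome itself were higher in 61 of 69 tested, and 22 (31.9%) lay entirely above the DMSO libraries. These are highly expressed, with a median of 131 FPKM, and 28.2% of all loci at 100 FPKM or more did the same. Of those loci 71.8% had a higher mean, with a median log2 change of 0.08. RPL5 read 110.12, 126.66 and 109.71 FPKM with DMSO and 136.51, 145.19 and 140.95 with BPA (0.29 ± 0.06, limma adjusted p = 0.248). RPS19 read 110.11, 112.09 and 125.52 against 136.43, 137.67 and 133.34. None was called. The second DMSO library was the lowest for this list (-0.142, beside -0.041 and -0.004) and the second BPA library the highest (0.128, beside 0.021 and 0.032). Without those 2 libraries 48 of 69 were higher and the median went from 0.12 to 0.05.

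Messenger RNAs of ribosomal proteins start with a terminal oligopyrimidine tract, through which the mTOR pathway controls their translation. A C followed by at least 4 pyrimidines at the annotated start was present in 36 of 55 of these genes (65.5%) and in 5.75% of all. The 3 members with the smallest p that hold it are shown from 10 bases before to 20 after the start, with the tract in capitals, from chr19:41860245-41860274, chr20:62387093-62387122 and chr4:108620566-108620595, all on the plus strand.
RPS19: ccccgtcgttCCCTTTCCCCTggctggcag
RPS21: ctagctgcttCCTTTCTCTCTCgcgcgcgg
RPL34: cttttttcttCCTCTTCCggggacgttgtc
Outside the ribosomal proteins, the median log2 change was 0.001 in 396 genes with the tract and -0.001 in 7063 without, and 10.86% and 9.25% lay entirely above DMSO. These differences were not tested.

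Mitochondrial genes of the nucleus leaned the same way. Of 30 tested subunits of respiratory complexes II to V, which pass electrons to oxygen and make ATP, 27 were higher and 13 (43.3%) lay entirely above DMSO, none entirely below, with a median log2 change of 0.13. The share of loci between 50 and 100 FPKM that lay entirely above was 20.5%. Of those loci 71.1% had a higher mean, with a median log2 change of 0.06. ATP5MC2, of the ATP synthase ring, read 26.35, 27.26 and 30.51 FPKM with DMSO and 31.50, 42.73 and 38.78 with BPA (0.40 ± 0.12, limma adjusted p = 0.431). UQCRC1, of complex III, read 64.42, 60.96 and 61.88 against 67.54, 69.18 and 71.89. In complex I, 23 of 27 were higher and 5 (18.5%) entirely above, near the 15.3% of loci between 20 and 50 FPKM. One member went the other way by more than any of these. NDUFA12 read 46.13, 25.28 and 42.68 FPKM against 20.74, 22.88 and 24.52 (-0.68 ± 0.21, limma adjusted p = 0.437). Of 65 mitochondrial ribosomal proteins, 52 were higher and 14 (21.5%) lay entirely above, beside the same 15.3%. Between 20 and 50 FPKM 61.5% of all loci had a higher mean. With both second libraries left out, 24 of 30, 16 of 27 and 39 of 65 were higher, with medians of 0.06, 0.01 and 0.02.

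RNA of the mitochondrial genome took a lower share with 0.25 nM BPA. Mitochondrial loci took 13.79, 14.31 and 13.63% of all FPKM with DMSO and 12.65, 12.62 and 12.66% with 0.25 nM BPA, a difference of -1.27 points. The groups did not overlap. The exact two-sided permutation test gave p = 0.1, the smallest value that 3 against 3 libraries allow. At 2500 nM the share was 12.94, 13.52 and 13.62%, and with E2 14 and 12.26%. Loci with a single mitochondrial gene name gave 6.44% against 5.75%. Short noncoding RNAs that normally carry no poly(A) tail were uneven between libraries, and the sources used here do not say how RNA was selected for the libraries. RN7SK, a small nuclear RNA, read 6.89, 29.65 and 13.46 FPKM with DMSO and 5.82, 6.56 and 4.76 with BPA, and RMRP, the RNA of the RNase MRP, read 4.64, 16.33 and 11.86 against 1.52, 1.87 and 0.71. At 2500 nM they read 68.01, 4.27 and 175.52 FPKM and 46.31, 1.67 and 117.87 FPKM, so libraries of 1 treatment were far apart. Both were picked after their values were seen and failed the test (limma adjusted p of 0.782 and 0.596). The part of RNA composition in the list results was not tested.

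**Figure D3:**
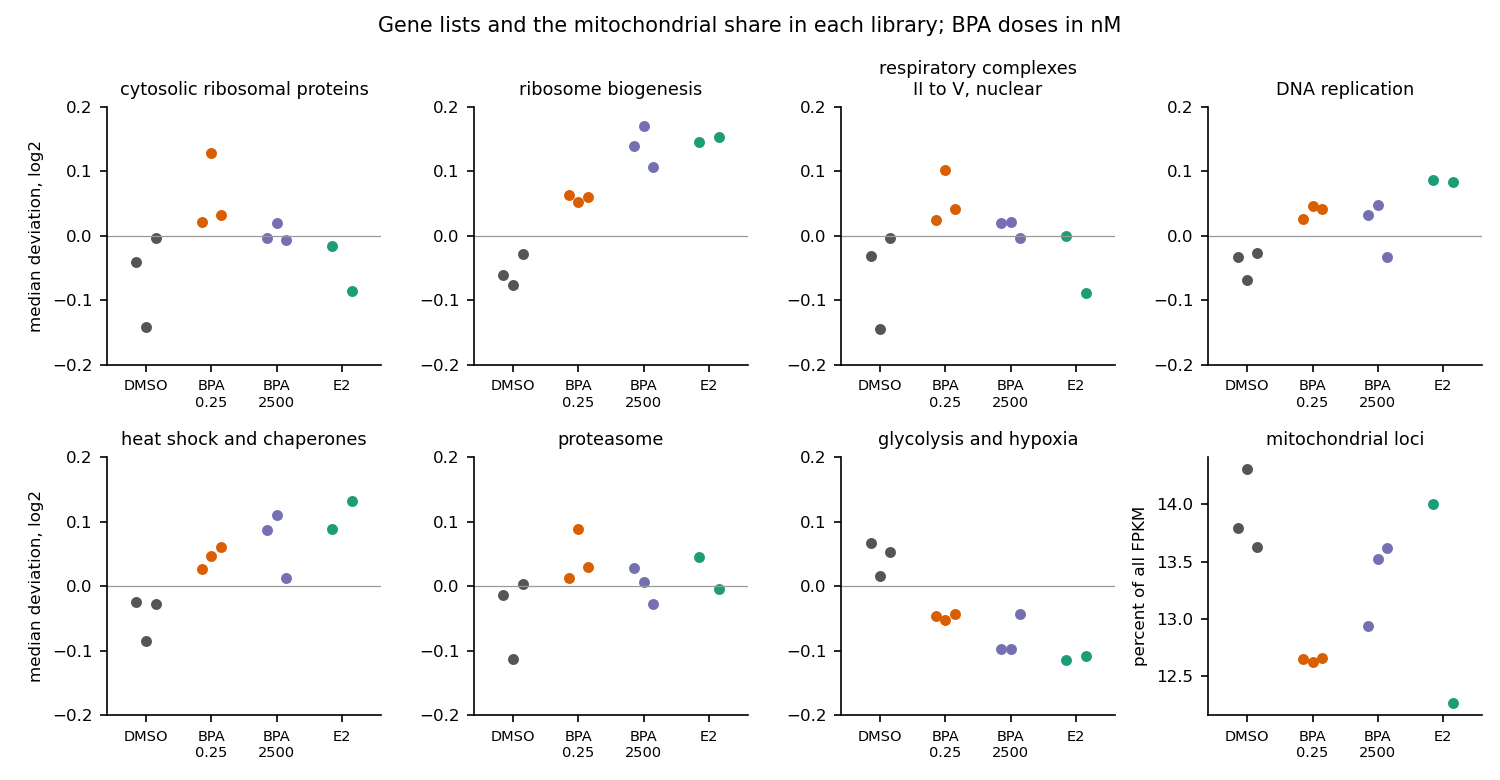
Median deviation of list members from their mean over the DMSO and 0.25 nM libraries (log2, 7 panels), and the share of FPKM in mitochondrial loci (percent, last panel, axis not from 0), in each of the 11 libraries. In ribosome biogenesis, DNA replication and chaperones the 0.25 nM points lie above all DMSO points, while the mitochondrial share and glycolysis genes lie below.

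Chaperones of the cytosol gave the highest share of any list. These proteins fold new and damaged proteins, and the CCT ring folds actin and tubulin. 22 of 25 tested were higher and 15 (60.0%) lay entirely above DMSO, with 1 entirely below, beside 20.5% of loci between 50 and 100 FPKM. The median log2 change was 0.08, beside 0.06 for loci between 50 and 100 FPKM, of which 71.1% had a higher mean. CCT3 read 108.71, 105.75 and 117.72 FPKM with DMSO and 123.09, 135.27 and 131.38 with BPA (0.23 ± 0.06, limma adjusted p = 0.340). CCT7 read 90.85, 88.38 and 97.10 against 103.01, 103.88 and 101.33, and CCT5 76.95, 68.80 and 86.79 against 87.58, 95.40 and 92.74. These subunits of the same ring separated without overlap, by 0.16 to 0.25 on the log2 scale, while CCT4 overlapped. Leaving out both second libraries kept the count at 22 of 25. Its median change from the shared DMSO libraries was 0.12 at 2500 nM and 0.14 with E2.

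The heat shock element, 3 short blocks bound by HSF1, was searched as GAA, TTC and GAA with any 2 bases between the blocks, on both strands. It lay in 4 of 22 promoters of the list (18.2%) and in 0.293% of all. 3 of them are shown with the element in capitals, from chr7:157336858-157336900 (plus strand), chr11:123062339-123062381 (minus) and chr11:90223082-90223124 (minus).
DNAJB6: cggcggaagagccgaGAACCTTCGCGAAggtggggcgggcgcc
HSPA8: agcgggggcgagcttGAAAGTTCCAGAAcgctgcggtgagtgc
CHORDC1: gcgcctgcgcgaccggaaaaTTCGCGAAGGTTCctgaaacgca
Outside the ribosomal proteins, 18.18% of the 22 genes with the element and 9.30% of those without lay entirely above DMSO. The 22 include the 4 of the chaperone list, and the difference was not tested. DNAJB6 read 10.17, 10.42 and 8.14 FPKM with DMSO and 8.20, 7.71 and 8.07 with BPA, and CHORDC1 6.41, 5.77 and 5.82 against 5.99, 6.18 and 6.35. HSPA8, the constitutive HSP70, read 310.10, 306.84 and 313.01 against 366.20, 330.28 and 434.90 (0.27 ± 0.13, limma adjusted p = 0.547). Of the inducible markers, DNAJB1 overlapped between the groups.

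Replication genes were higher in 31 of 39 tested, 12 of them (30.8%) without overlap, and none lay entirely below. The share of loci between 5 and 20 FPKM was 10.9%, and between 20 and 50 FPKM 15.3%. MCM7, of the replicative helicase, read 56.96, 54.51 and 57.40 FPKM with DMSO and 65.20, 64.02 and 64.77 with BPA (0.20 ± 0.04, limma adjusted p = 0.251). CDC45, which activates the helicase, read 12.05, 11.68 and 13.25 against 13.75, 15.27 and 14.11. ORC1, which marks origins, read 15.04, 16.14 and 16.99 against 17.95, 17.91 and 17.40. The sliding clamp PCNA overlapped, at 132.89 to 170.41 FPKM with DMSO and 161.35 to 186.21 with BPA. In the list of mitosis and spindle genes 26 of 42 were higher, with a median of 0.02. That was near the 61.5% and the median of 0.03 of loci between 20 and 50 FPKM.

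The E2F site TTTGGCGC, searched on both strands, lay in 6 of 32 replication promoters (18.8%) and in 1.16% of all. 3 are shown with the site in capitals, from chr12:132687343-132687375 (minus strand), chr2:135876573-135876610 (minus) and chrX:24693766-24693803 (plus).
POLE: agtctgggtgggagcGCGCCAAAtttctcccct
MCM6: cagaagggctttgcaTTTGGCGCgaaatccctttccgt
POLA1: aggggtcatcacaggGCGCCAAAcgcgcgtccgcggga
POLE, the leading-strand polymerase, read 9.12, 9.07 and 8.77 FPKM with DMSO and between 9.22 and 10.23 with BPA. MCM6 and POLA1 overlapped. Outside the ribosomal proteins, 52.9% of the 87 genes with this site and 49.8% of those without had a higher mean, and 6.90% and 9.36% lay entirely above DMSO. For the other form searched, TTTCGCGC, 12.16% of 74 genes with it and 9.30% of those without lay entirely above.

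Proteasome genes, which degrade tagged proteins, were higher in 24 of 29, with a median of 0.08. 10 (34.5%) lay entirely above, beside 20.5% of loci between 50 and 100 FPKM. Of those loci 71.1% had a higher mean, with a median of 0.06. PSMD4, a ubiquitin receptor, read 96.40, 87.27 and 97.48 FPKM with DMSO and 102.28, 107.82 and 101.07 with BPA. Here the second DMSO library was low (-0.113, beside -0.014 and 0.004), and without both second libraries 18 of 29 were higher. Splicing factors were higher in 34 of 41, beside 61.5% of loci between 20 and 50 FPKM. They lay entirely above in 8 (19.5%), near the 15.3% of those loci. Enzymes of the methionine and folate cycle were higher in 15 of 19 and entirely above in 5 (26.3%), beside 10.9% of loci between 5 and 20 FPKM. None of these was called.

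Fewer groups leaned down, and glycolysis and hypoxia had the highest share entirely below among the lists with at least 5 tested members. 19 of 27 tested members were lower, beside 49.8% of all loci, and 8 (29.6%) lay entirely below DMSO, beside 8.14% of all loci and 6.7% of loci between 20 and 50 FPKM. None lay entirely above, and the median log2 change was -0.08. P4HA1, the collagen prolyl hydroxylase, read 24.75, 24.45 and 23.95 FPKM with DMSO and 21.46, 20.20 and 20.92 with BPA (-0.22 ± 0.04, limma adjusted p = 0.248). SLC2A3, the glucose transporter GLUT3, read 5.87, 6.25 and 6.21 against 4.79, 4.47 and 5.37 (-0.28 ± 0.06, limma adjusted p = 0.289). BNIP3, a receptor for mitophagy, read 33.97, 32.92 and 30.46 against 27.79, 27.37 and 27.41, and the oxygen sensor EGLN1 10.87, 10.97 and 10.30 against 9.52, 8.84 and 9.21. Of the 8 that separated, PFKP and ALDOC are glycolytic enzymes, and the others, with BNIP3L and VEGFA, are genes known to respond to low oxygen. Abundant enzymes such as GAPDH overlapped, at 1512.22 to 1632.94 FPKM with DMSO and 1620.01 to 1731.07 with BPA. Among the most abundant, the means of LDHA, GAPDH, TPI1, ENO1 and PGAM1 were higher with BPA, with log2 changes of 0.02 to 0.10. PKM stood at -0.03. Without both second libraries 21 of 27 were lower, and 13 (48.1%) lay entirely below, beside 17.2% of all loci. Over the 22 members with a mean of at least 5 FPKM the median was -0.03.

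**Figure D4:**
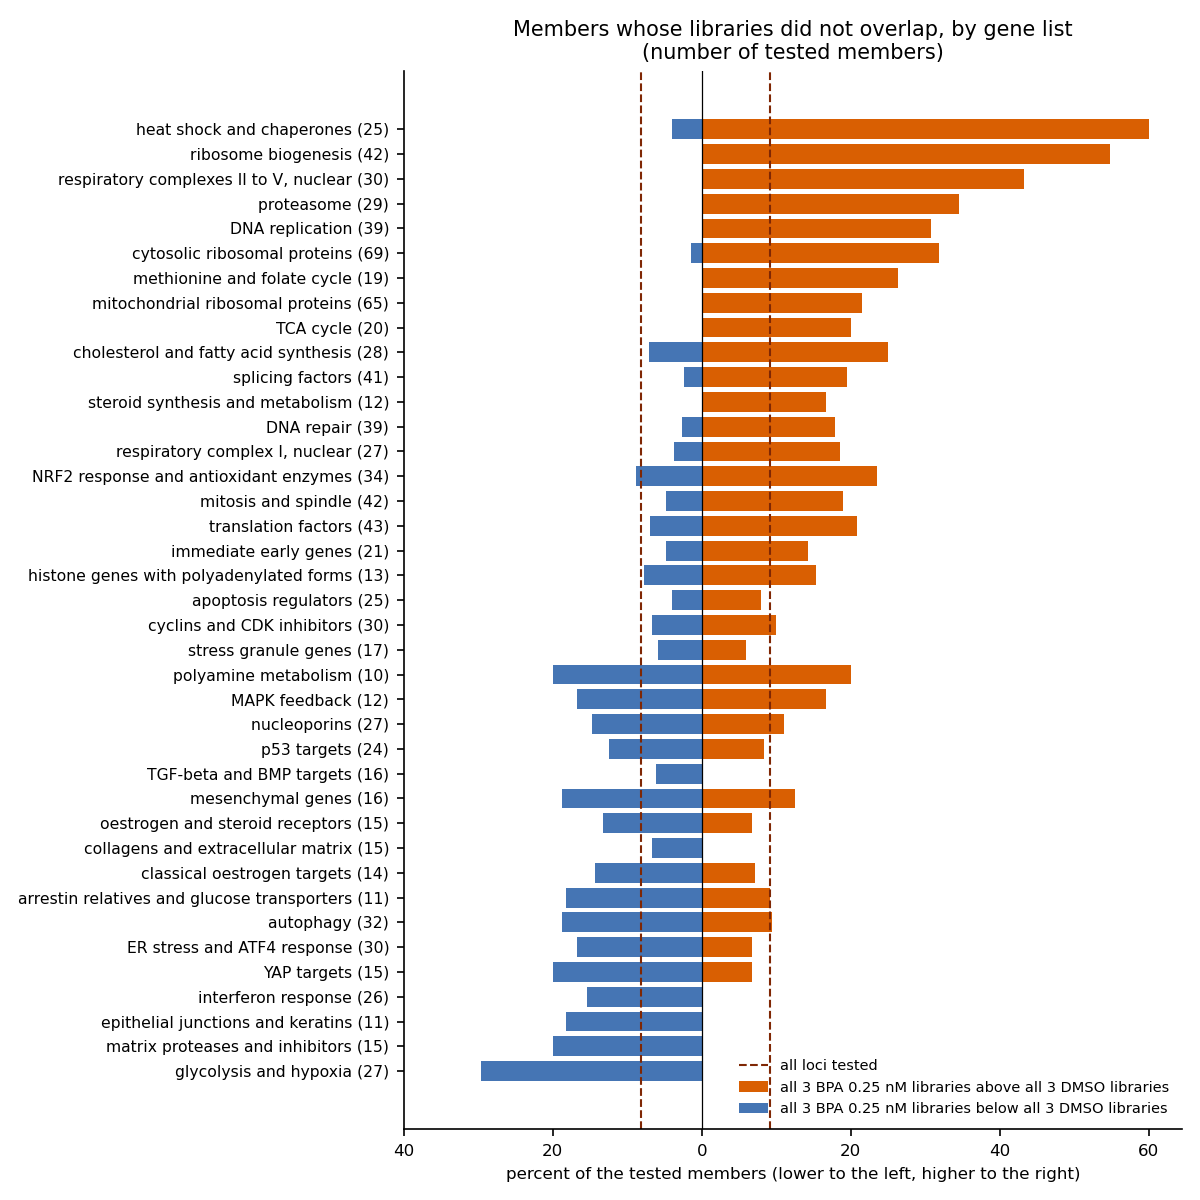
Percent of tested members whose 3 BPA 0.25 nM libraries lay entirely above (right) or entirely below (left) the 3 DMSO libraries, by gene list with its number of tested members. Dashed lines mark the share over all loci, 9.15% and 8.14%. Chaperones (60.0%) and ribosome biogenesis (54.8%) reach farthest to the right, glycolysis and hypoxia (29.6%) farthest to the left.

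Interferon-stimulated genes, the antiviral programme, had 15 of 26 lower and 4 (15.4%) entirely below, beside 8.2% of loci between 5 and 20 FPKM, with a median log2 change of -0.01. That lean is close to the 49.8% of all loci that were lower. GBP2, a guanylate-binding protein, read 5.91, 5.90 and 5.97 FPKM with DMSO and 4.96, 4.97 and 4.88 with BPA, and IFIT1 15.37, 15.10 and 15.56 against 13.35, 13.27 and 13.16. Both groups were tight, and the differences of -0.22 ± 0.04 and -0.20 ± 0.04 had a limma adjusted p of 0.248. The list of YAP targets also holds the regulators YAP1, WWTR1 and TEAD1, all with lower means. With these counted, 13 of 15 were lower, and LATS2, MYOF and WWTR1 lay entirely below, beside the same 8.2%. Without both second libraries only 8 of 15 were lower. AMOTL2, a feedback target, read 4.34, 4.56 and 4.59 against 6.72, 5.16 and 5.66 (0.31 ± 0.08, limma adjusted p = 0.340). Matrix proteases were lower in 12 of 15 and entirely below in 3, and ER stress genes in 21 of 30 and 5 (16.7%), again beside 8.2%, and the median of the ER stress list was -0.02. None of these members was called.

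Hormone genes gave little. ESR1 was at most 0.02 FPKM, ESR2 at most 0.04 and the dioxin receptor AHR at most 0.06 in all 11 libraries, and the glucocorticoid receptor NR3C1 reached 0.09. GPER1 was present, at 1.58, 2.02 and 2.96 FPKM with DMSO and 1.72, 2.12 and 2.50 with BPA, the groups overlapping throughout (-0.02 ± 0.21, limma adjusted p = 0.991). ESRRA, an orphan relative of the oestrogen receptor and a driver of mitochondrial genes, read 12.27, 15.36 and 16.93 against 17.40, 20.72 and 19.87. The groups did not overlap, by a narrow margin, and the difference of 0.37 ± 0.11 had a limma adjusted p of 0.433. It stood alike at 2500 nM (18.78 to 20.98 FPKM).

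Classical oestrogen targets split evenly, with 6 of 14 tested higher, a median of 0.00 and none called. GREB1, a direct target of ESR1, did not exceed 0.11 FPKM. STC2, a secreted glycoprotein, read 3.28, 2.93 and 2.87 FPKM with DMSO and 2.52, 2.15 and 2.41 with BPA (-0.26 ± 0.09, limma adjusted p = 0.449). CCND1, cyclin D1, overlapped at 31.95 to 34.22 and 31.33 to 33.83 FPKM. CYP1B1, the enzyme that hydroxylates estradiol and a target of AHR, overlapped at 1.62 to 1.95 and 1.38 to 1.68 FPKM. HSD17B10, a mitochondrial dehydrogenase of steroids and fatty acids, read 80.05, 74.47 and 80.97 against 92.82, 98.74 and 94.06 (0.28 ± 0.06, limma adjusted p = 0.308), the widest gap among 12 tested genes of steroid metabolism.

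Both BPA doses were compared directly, without the DMSO libraries entering the difference. 8 loci (0.0671%) passed at 2500 nM against 0.25 nM, 2 higher and 6 lower. KCTD10, an adaptor of a ubiquitin ligase, stood at 6.85, 7.13 and 7.0 FPKM with 0.25 nM and fell to 3.25, 3.79 and 3.73 with 2500 nM (-0.80 ± 0.05, limma adjusted p = 0.00106). At 0.25 nM it matched DMSO, at 7.12, 7.09 and 7.30. COL3A1, a fibrillar collagen, fell by 0.43 between the doses (SE 0.05, limma adjusted p = 0.0266), from 32.01, 30.43 and 33.04 to 23.34, 22.97 and 23.77 FPKM, and likewise stood with DMSO at the low dose. CALCRL, PDLIM3 and CAMK2N1 fell by 0.38 to 0.45. CCN1, a YAP target, rose by 0.36 from 25.15 to 27.48 FPKM at 0.25 nM to 33.13 to 35.83 at 2500 nM. The mitochondrial tRNA MT-TF rose by 0.50. At 0.25 nM CALCRL already lay below DMSO without overlap, at 6.23 to 6.87 against 7.16 to 7.34 FPKM. MT-TF lay above it, at 35.92 to 37.31 against 28.98 to 33.14 FPKM. Neither difference from DMSO passed the test (limma adjusted p of 0.443 and 0.34).

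Among these 8, only the locus of NEAT1, the long RNA of nuclear paraspeckles, stood above both DMSO and 2500 nM without overlap. It read 0.81, 1.09 and 0.70 FPKM with DMSO, 1.63, 1.82 and 1.56 with 0.25 nM and 0.69, 0.71 and 0.59 with 2500 nM, so the low dose alone was high. The limit for testing used the DMSO and 0.25 nM libraries alone, and this locus met it through the 0.25 nM libraries. A locus that reached 1 FPKM at 2500 nM alone could not enter the dose comparison. The drop between doses passed the test (-0.68 ± 0.09, limma adjusted p = 0.0429), while the difference between 0.25 nM and DMSO did not (0.52 ± 0.09, limma adjusted p = 0.195). E2 libraries read 0.66 and 0.73 FPKM. This locus, at chr11:65422774-65445540, holds several noncoding names and no coding gene. The genes called between doses were named after their values were seen.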

How the data were processed

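RNA of 11 libraries was measured as FPKM per assembled locus. The authors deposited FPKM, not counts, so depth is unknown and no count model was used. Per the submitters' processing notes, HISAT, UMI-tools, StringTie and edgeR were used, with no settings, and hg19 is named; the deposited coordinates match GRCh38 (74.8% of 14123 Ensembl loci have the start and end of GENCODE 29). The sources used here do not give strandedness.

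Levels were tested as log2(FPKM + 1) with limma 3.58.1 in R 4.3.3 (trend and robust settings, all 11 libraries, 1 mean per group), with Benjamini-Hochberg adjustment over all loci; the script was tested on simulated data. The mitochondrial share was compared with an exact permutation test (scipy 1.17.1). Alternatives changed the pseudocount, filter, scaling, libraries and blocking.

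Named were the called genes, the 12 largest non-overlapping changes and the 10 smallest p in each direction among loci with 1 coding gene, 4 members per list by p, and a panel. Members shown for a motif and other list members named for overlap fall outside this rule and were chosen after their values were seen. Members and lists were chosen with earlier results of these data known. Promoters were matched by symbol to RefSeq (GRCh38.p14), for 7514 of 9327 genes. Some listed genes are not reported here.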

Additional observations from a re-analysis of the deposited data

How the results depend on the processing

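The 2 calls at 0.25 nM BPA against DMSO became 0 with a mean of at least 5 FPKM, a limit that leaves CCDC69 untested. They became 1 after rescaling by the median of ratios, 1 with no trend or robust setting, and 9 in a fit restricted to the 6 libraries. Leaving out single libraries gave 0 to 9 calls. All these counts are of any locus and not of the 2 genes alone. There were 0 with BPA 0.25 nM replicate 2 left out, and 1, FOSL2, with its replicate 1. There were 4 with DMSO replicate 2, 9 with DMSO replicate 3, and 4 and 6 with BPA 2500 nM replicates 1 and 3. For 2500 nM against 0.25 nM BPA, the 8 calls became 4 when loci at low levels were kept and 2 when E2 was left out, and 2 to 10 when single libraries were left out. Replicate numbers did not pair the samples: same-numbered DMSO and 0.25 nM libraries correlated at -0.123, -0.048 and 0.019. With the replicate block, 1 locus was called against DMSO and 3 between the doses. With single libraries left out, small differences from DMSO changed sign in some fits: the log2 value ranged from -0.16 to 0.15 for GPER1, from -0.05 to 0.01 for CCN1, from -0.06 to 0.06 for CCT4, from -0.15 to 0.07 for KRT18, from 0.00 to 0.06 for COL3A1 and from -0.00 to 0.08 for POLA1. The mitochondrial share kept its direction in all 8 alternatives. The cause of these changes in the number of calls was not tested. FPKM carry no depth, so the precision of low levels could not be set apart from the spread between libraries.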

Other observations

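Among loci without a coding gene, chosen after their values were seen, LINC00205 stood at 3.26, 3.32 and 3.17 FPKM with DMSO and at 0.14, 0.15 and 0.09 with 0.25 nM BPA. At 2500 nM it read 2.89, 1.75 and 0.10 FPKM, so libraries of 1 treatment spanned both levels. Its log2 difference at 0.25 nM was -1.92 ± 0.36 (limma adjusted p = 0.248). HNRNPA1P12, a pseudogene whose reads may be shared with its parent gene, read 6.76, 9.21 and 5.81 FPKM against 0.16, 0.34 and 0.06 (-2.79 ± 0.56, limma adjusted p = 0.248), and at 2500 nM 5.31, 0.17 and 5.70. SNORD12C, a small nucleolar RNA, read 0.43, 1.49 and 0.35 FPKM with DMSO and 2.45, 2.56 and 2.26 with 0.25 nM BPA (1.02 ± 0.22, limma adjusted p = 0.268).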
